A study of Mus musculus with 3 samples.

Results

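The genes described here encode the proteins of the large (60S) subunit of the cytosolic ribosome in mouse four-cell embryos. Members were all non-control probes whose gene name on the array begins with Rpl or Rplp followed by a digit, which gave 78 probes on 87 spots for 49 genes, of 41174 probes and 27671 gene names in all. RNA came from pools of embryos. In the HP group, oocytes were held at a hydrostatic pressure of 20 MPa for 60 min at 37 °C, and in the control group they were kept in the same way without pressure. Both groups were then fertilised by injection of a sperm into the oocyte (ICSI), per the sample labels, and grown to the four-cell stage. Replicates 1, 2 and 3 held 44, 30 and 37 embryos in the HP pools and 36, 33 and 24 in the control pools, and no strain or age of the animals is given in the labels. From each pool 240 pg of total RNA was amplified in successive rounds, and each HP pool was hybridised with the control pool of its number on 1 of 3 two-colour arrays. The HP pool was the Cy5 channel and the control pool the Cy3 channel in all 3 replicates, with no dye swap, so dye and pressure cannot be told apart. In pooled RNA, fewer cells that hold a transcript and less of it per cell cannot be told apart either.

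The 60S subunit joins ribosomal RNA strands with a set of proteins, most of them made from single genes that are transcribed in all cells. It carries the peptidyl transferase centre, the tunnel through which the new chain leaves, and a flexible stalk that recruits elongation factors. The mRNAs of these proteins begin with a run of pyrimidines, the terminal oligopyrimidine motif, through which their translation is controlled together. In mouse embryos, ribosomes and ribosomal protein mRNAs stored by the oocyte are joined by newly made ones after the embryonic genome becomes active in early cleavage.

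The 3 arrays were on 1 slide. Every array held 45018 spots, no spot was saturated, and 17.5% to 23.2% of non-control spots were well above background in a channel. Of markers of the oocyte and early embryo, 8 of 14 on the array were well above background in both groups (Gdf9, Bmp15, Zp3, Dppa3, Dppa5a, Oosp1, Oog1 and Btg4), whereas Zp2, Nlrp5, Padi6, Ooep, Zar1 and Pou5f1 were not. The summed signal of the 8 was 41111 to 54134 in HP and 30362 to 32582 in control, and its part in the results below was not tested. Of the cumulus and granulosa markers 9 of 10 were not above background, with Nr5a2 the exception (126 to 334 in HP and 153 to 354 in control). Of the sperm markers Prm1 alone of 6 was (91.2 to 110.2 and 94.5 to 111). Of 5 markers of early zygotic transcription on the array, 3 were above background in HP and 2 in control (summed signal 372 to 602 and 285 to 369). Hba-a1 was the 1 of 3 blood markers above background, in HP only (88.2 to 96.0, against 82.6 to 90.4 in control), and no fibroblast or trophectoderm marker (4 and 4) was. The HP pools of replicates 2 and 3 were the most alike of all pairs of pools. The SD of their difference was 0.23 (log2) over all tested genes and 0.17 over the members, against 0.46 to 0.64 and 0.34 to 0.63 for the other pairs. Whether they are separate pools beyond their labels was not settled by the values. Results were also computed with these arrays counted as 1, and the errors and p-values with n = 3 take them as separate.

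The array measured each gene through probes of 60 bases. The probes of some of the lowest members are shown because a ratio belongs to the stretch of mRNA that its probe reads. Positions are those of the array design (mm7), and a position longer than the probe spans an intron. Exon and UTR annotation was not used here. In Rpl22 the first probe lies at chr4:151319591-151319650 and in Rpl24 the brighter probe at chr16:55822131-55822190. The others are Rpl9 at chr5:64743456-64743906, Rpl32 at chr6:115832701-115832760 and Rpl35 at chr2:39009034-39011434. All are given 5′ to 3′ in the sense of the mRNA.
Rpl22: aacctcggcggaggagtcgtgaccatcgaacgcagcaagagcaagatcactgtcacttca
Rpl24: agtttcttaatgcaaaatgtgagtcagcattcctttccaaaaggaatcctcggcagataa
Rpl9: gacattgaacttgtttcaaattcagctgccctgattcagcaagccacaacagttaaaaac
Rpl32: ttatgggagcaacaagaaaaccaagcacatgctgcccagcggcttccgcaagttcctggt
Rpl35: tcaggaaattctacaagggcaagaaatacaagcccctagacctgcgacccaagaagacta
The GC content of these 5 ran from 38.3% in the Rpl24 probe to 55% in the Rpl22 probe. Over the 57 tested member probes the median was 45% (35% to 75%), against 41.7% over all 8581 tested probes. Across probes, which are not independent replicates, the GC content correlated with the log2 ratio at r = 0.20 in the members and 0.05 in all probes, a description with no test.

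Nearly all of the large subunit genes that could be measured had lower signal in HP embryos than in control embryos, by a moderate amount. Of the 49 genes, 43 had a probe that was well above background in HP, or in control, on 2 or more arrays and were tested, among 7248 genes in all. Their median log2 ratio (HP over control) was −0.49, against −0.01 over all tested genes. The mean ratio was below 0 in 41 of 43, where 51.7% of all tested genes were below 0, and in 34 of 43 it was below 0 on each array, against 25% of all genes. Rpl13a and Rpl21 were the 2 members with a mean above 0, where 48.3% of all genes were. No member passed the threshold of 0.05 after adjustment over all genes (limma, Benjamini-Hochberg, adjusted p from 0.174 to 0.837), nor did any of the 7248 genes (0%).

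At an unadjusted p under 0.05, 28 of 43 members were lower in HP and 0 were higher, where 11.3% and 7.26% of all genes were. That count depended on single arrays and on their scaling. It was 26 without replicate 1, 16 without replicate 2, 11 without replicate 3, 15 with replicates 2 and 3 counted as 1, and 10 with the ratios scaled between arrays. In 29 of 43 members every HP pool was below every control pool in signal, against 13.2% of all genes, and in 0 members was every HP pool above (13.3% of all genes). None was at least 2-fold lower on all 3 arrays, which 0.221% of all genes were. Precision is limited by 3 arrays, and these p-values measure only the spread between 3 pairs of pools.

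The level of the whole array bears on these values. With each array centred on its median in place of an intensity-dependent curve (loess), the median of all tested genes moved to −0.39 and that of the members to −1.50. In that setting 31 of 43 members (72.1%) were lower at a limma adjusted p under 0.05, where 14.2% of all genes were lower and 0.069% higher. Adjusted p-values of members reached 0.0416 there, and their lowest value was between 0.0587 and 0.499 in the other settings tried. Of the calls at an unadjusted p under 0.05 over all genes, 98.2% were lower in HP with median centring and 60.8% with loess. With the log ratios of the scanner software the members' median was −0.86 and that of all genes 0.05. In all 3 of these scalings the members' median lay below that of all genes, by 0.48 with loess, 1.11 with median centring and 0.91 with the scanner ratios. Median centring does not remove a dependence of the ratio on signal. The members were brighter, with a median mean log2 signal of 9.40, against 7.06 over all tested genes. The gap and the shares with median centring therefore compare genes of unlike brightness. Genes as bright as the members were compared after loess only.

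**Figure D1:**
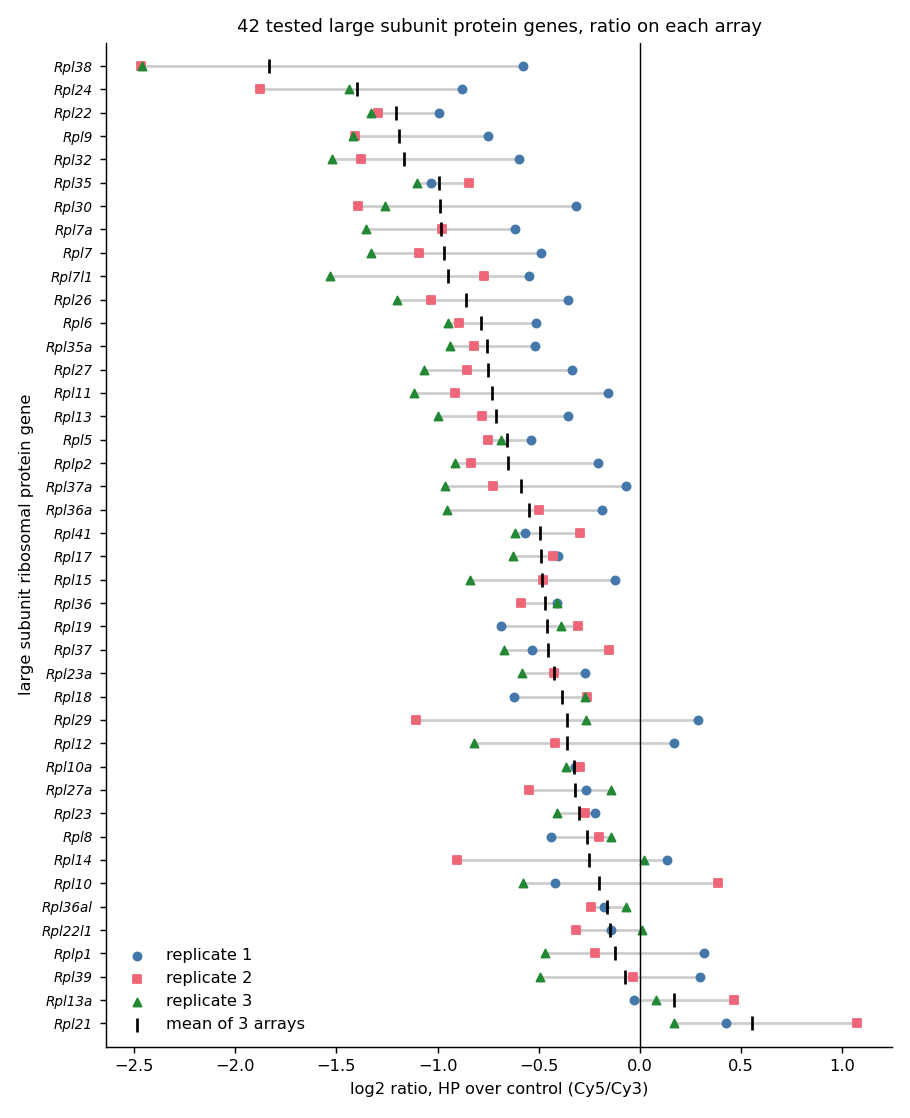
Log2 ratio of HP over control (Cy5 over Cy3) of 42 of the 43 tested genes on each of 3 arrays after loess, ordered by their mean (black bar). The means run from −1.83 for Rpl38 to 0.56 for Rpl21, and those of Rpl13a and Rpl21 lie above 0. With median centring Rpl21 is also below 0, at −0.45.

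The size of the difference varied among members and among arrays. A mean of −1 or lower, which is a 2-fold or larger difference, was found in 5 genes, a mean between −1 and −0.5 in 16, and one between −0.5 and 0 in 20. The median over the members was −0.36 in replicate 1, −0.59 in replicate 2 and −0.68 in replicate 3. Replicate 3 gave the lowest ratio in 29 of 43 genes and replicate 1 the highest in 29. Across the members, the ratios of arrays 1 and 2 correlated at r = 0.48, those of arrays 1 and 3 at 0.53 and those of arrays 2 and 3 at 0.80, and across all genes at 0.23, 0.22 and 0.65. These describe the arrays, and the genes on them are not independent replicates. After loess the mean ratio was nearly unrelated to signal level, with r = −0.10 across the 43 members, whose mean log2 signal ran from 6.41 to 14.0. Loess removes a dependence of the ratio on signal across the array, so this relation is set in part by the scaling. With the scanner ratios r was 0.14, and with median centring it was not computed.

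**Figure D2:**
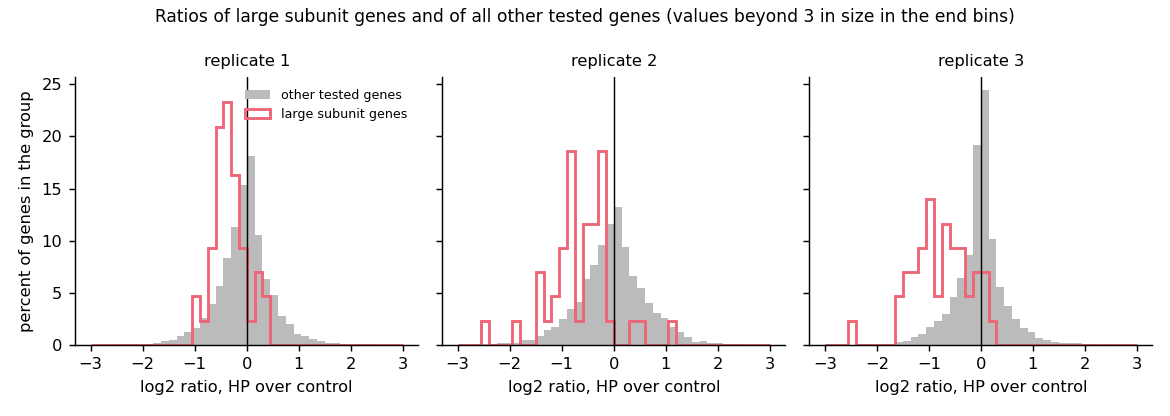
Share of genes (percent, y axis) by log2 ratio of HP over control (x axis) on each array, for 43 large subunit genes (red outline) and the other tested genes (grey). The members' median is −0.36, −0.59 and −0.68 on replicates 1, 2 and 3. It lies to the left of the other genes, whose medians are −0.02, −0.01 and 0.01.

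The offset of 50 added to each signal pulls the ratio of a dim probe towards 0, so the order of members depends on the scaling. The lowest member after loess with this offset was Rpl38, a small protein of the subunit surface whose loss in the Tail short mouse alters the axial skeleton. Its log2 signal was 12.66, 10.86 and 11.13 in HP replicates 1, 2 and 3 and 13.24, 13.32 and 13.59 in the controls. The groups did not overlap, and HP replicate 1 lay well above the other HP pools. The log2 ratios were −0.58, −2.46 and −2.46, a mean of −1.83 ± 0.45 (SE, n = 3, as for all means below), or 3.57-fold lower in HP (limma adjusted p = 0.195). With the scanner ratios Rpl24 (−2.80, 6.95-fold lower) and Rpl27a (−2.49) lay below Rpl38 (−2.04), and with a normexp offset of 0 Rpl24 (−2.13) lay below Rpl38 (−1.89).

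Rpl24, which forms a bridge to the small subunit, followed at −1.40 ± 0.23 (2.64-fold lower, limma adjusted p = 0.174). It read 6.66, 6.75 and 7.14 in HP and 7.54, 8.63 and 8.58 in control, so the control of replicate 1 was the lowest of its group and still above each HP pool. The ratios were −0.88, −1.88 and −1.44. Rpl22, a surface protein that is dispensable in most mouse tissues apart from T cell development, differed by a similar amount on each array. Its signal was 8.23, 7.59 and 7.82 in HP and 9.22, 8.88 and 9.15 in control, without overlap. The ratios of −0.99, −1.29 and −1.33 gave a mean of −1.21 ± 0.13 (2.31-fold lower, limma adjusted p = 0.174). A second Rpl22 probe was not well above background in any pool.

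Rpl9, a protein at the base of the stalk region, read 9.74, 8.99 and 9.10 in HP and 10.49, 10.40 and 10.52 in control. The controls lay close together and HP replicate 1 was the highest HP pool. Its ratios were −0.75, −1.41 and −1.42 (mean −1.19 ± 0.19, 2.28-fold lower, limma adjusted p = 0.174). For Rpl32, a protein of the subunit body, the HP values were 9.13, 8.17 and 8.29 and the control values 9.72, 9.55 and 9.82. The pattern was that of Rpl9, with ratios of −0.60, −1.38 and −1.52 and a mean of −1.16 ± 0.23 (2.24-fold lower, limma adjusted p = 0.176).

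Rpl35, which lies beside the exit of the peptide tunnel, differed by nearly the same amount on every array. It read 8.13, 8.28 and 8.23 in HP and 9.16, 9.12 and 9.33 in control. The ratios were −1.03, −0.85 and −1.10 (mean −0.99 ± 0.12, 1.99-fold lower, limma adjusted p = 0.174). Rpl30, which also regulates splicing of its own transcript in yeast, read 10.29, 9.79 and 9.88 in HP and 10.61, 11.19 and 11.14 in control. Here replicate 1 differed least, at −0.32, beside −1.39 and −1.26, for a mean of −0.99 ± 0.26 (limma adjusted p = 0.203). Rpl7a, a protein of the subunit body that binds ribosomal RNA early in assembly, was at 11.27, 10.93 and 10.93 in HP and 11.89, 11.91 and 12.28 in control. Its ratios were −0.62, −0.98 and −1.35 (mean −0.98 ± 0.18, 1.98-fold lower, limma adjusted p = 0.176). In each of these 8 genes the HP and control pools did not overlap.

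**Figure D3:**
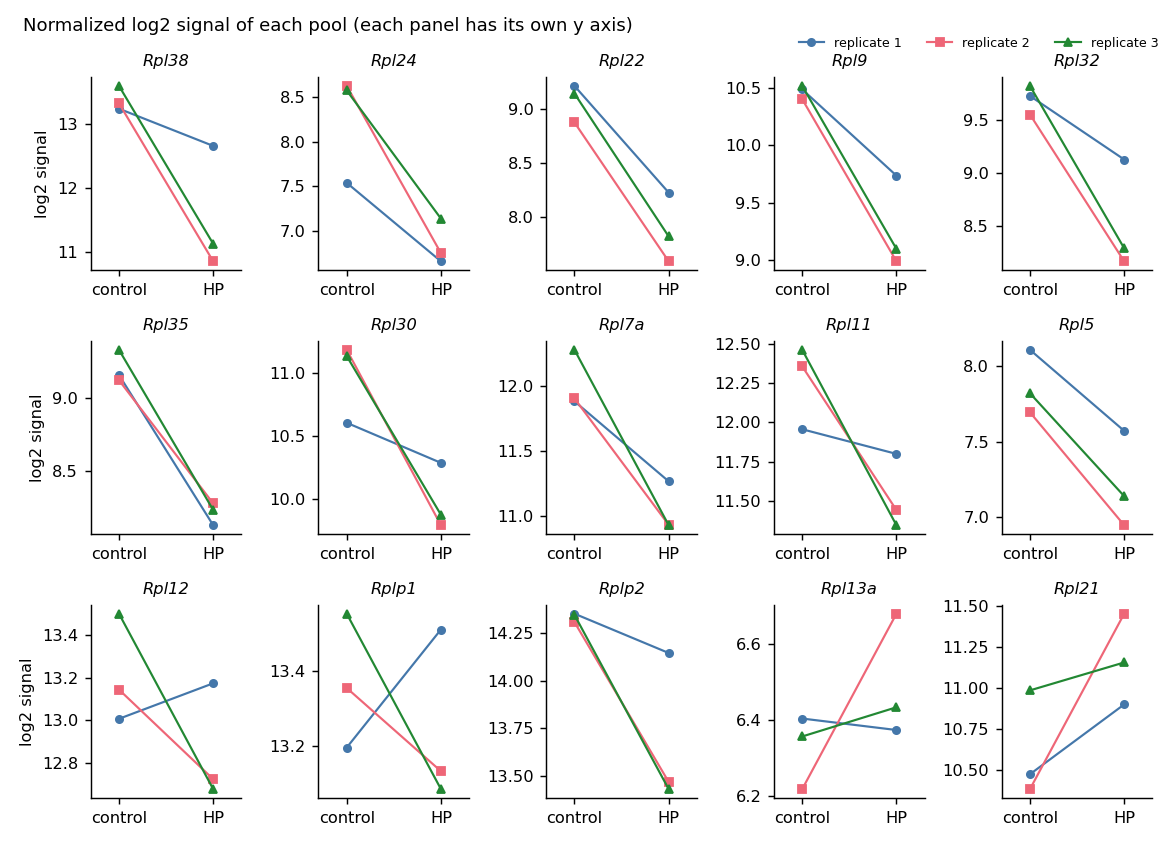
Normalized log2 signal (y axis, own scale in each panel) of the control and HP pool of each array, joined by a line, for 15 genes. In Rpl38 to Rpl7a, the 8 lowest genes after loess, every line slopes down and the groups do not overlap. Lines of Rpl12, Rplp1 and Rpl13a run in both directions, and those of Rpl21 slope up on each array after loess but not in the mean with median centring (−0.45).

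The stalk recruits translation factors and consists of Rplp0, which anchors it, and dimers of Rplp1 and Rplp2, with Rpl12 at its base. Values differed among its proteins. Rplp2 was lower on every array, at 14.14, 13.47 and 13.43 in HP and 14.35, 14.31 and 14.34 in control. Its ratios were −0.21, −0.84 and −0.91 (mean −0.65 ± 0.19, limma adjusted p = 0.223) and the groups did not overlap. Rplp1, its dimer partner, read 13.51, 13.13 and 13.08 in HP and 13.19, 13.35 and 13.55 in control. The ratios of 0.32, −0.22 and −0.47 differ in sign, their mean of −0.13 ± 0.19 is within the spread (limma adjusted p = 0.734), and without replicate 3 it was 0.047. Rpl12 was at 13.17, 12.72 and 12.68 in HP and 13.01, 13.14 and 13.50 in control. Replicate 1 again went the other way, with ratios of 0.17, −0.42 and −0.82 (mean −0.36 ± 0.23, limma adjusted p = 0.420). The difference between Rplp2 and its partners was not tested.

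Rplp0 could not be tested under its own name. Its probe, printed on 10 spots, was not well above background in any pool (log2 signal 6.35 in HP and 6.38 in control). The array design places this probe at chr8:101459316-101459375, whereas RefSeq has the gene on chromosome 5. It was the 1 of 77 member probes with a design position that lay on another chromosome than the gene. The sequence is shown because this probe bears the name of the gene.
Rplp0: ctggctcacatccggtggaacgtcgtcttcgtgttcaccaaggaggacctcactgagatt
Under its older name Arbp the same gene had 2 other probes. The brighter read 13.07 in HP and 12.96 in control, with ratios of 0.15, 0.25 and −0.06 (mean 0.11 ± 0.12). The dimmer gave −0.08 ± 0.11. Neither differed beyond its spread (limma adjusted p = 0.619 and 0.698 over all probes). The brighter probe changed sign with the scanner ratios (−0.13) and with median centring (−1.08).

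Rpl5 and Rpl11 enter the ribosome together with 5S RNA, and the free particle binds Mdm2, the ubiquitin ligase of p53. Both were lower in HP on each array. Rpl5 read 7.57, 6.94 and 7.14 in HP and 8.11, 7.70 and 7.82 in control. The groups lay apart by a narrow gap, and the ratios of −0.54, −0.75 and −0.68 gave a mean of −0.66 ± 0.11 (limma adjusted p = 0.174). Rpl11 read 11.80, 11.44 and 11.35 in HP and 11.96, 12.36 and 12.46 in control. Its ratio was small in replicate 1 and larger in the others (−0.16, −0.92 and −1.12), with a mean of −0.73 ± 0.23 (limma adjusted p = 0.240).

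Several members have a paralog, and the product of some of these paralogs can take the parent's place in the ribosome. Rpl22l1, the paralog of Rpl22, differed little between the groups after loess, but with median centring it was at −1.15 (limma adjusted p = 0.0462), beside −1.95 for Rpl22. It read 10.64, 10.88 and 10.88 in HP and 10.78, 11.19 and 10.87 in control, with overlap. The ratios were −0.14, −0.32 and 0.01 (mean −0.15 ± 0.12, limma adjusted p = 0.513), against −0.99, −1.29 and −1.33 for Rpl22. On each array the ratio of Rpl22l1 was the higher of the pair, a difference that was not tested. Rpl36al read 6.65, 6.72 and 6.66 in HP and 6.83, 6.96 and 6.73 in control, close to background. Its ratios were −0.18, −0.24 and −0.07 (mean −0.16 ± 0.11, limma adjusted p = 0.434), beside −0.19, −0.50 and −0.95 for its parent Rpl36a (mean −0.55 ± 0.19, limma adjusted p = 0.258). With the scanner ratios the means were −0.62 for Rpl36al and −0.60 for Rpl36a.

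Rpl7l1, the paralog of Rpl7, was lower together with its parent. It read 7.66, 6.89 and 7.31 in HP and 8.21, 7.66 and 8.84 in control, and the groups touched (HP replicate 1 and control replicate 2). Its ratios were −0.55, −0.77 and −1.53 (mean −0.95 ± 0.23, limma adjusted p = 0.194), beside −0.49, −1.09 and −1.33 for Rpl7 (mean −0.97 ± 0.20, limma adjusted p = 0.177). Rpl3l, the paralog of Rpl3 in muscle, was not well above background in any pool, and neither was Rpl3 itself.

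Of the members with a mean above 0, Rpl21 was above 0 on all 3 arrays. It read 10.90, 11.45 and 11.16 in HP and 10.47, 10.38 and 10.99 in control, with overlap. The ratios of 0.43, 1.07 and 0.17 gave 0.56 ± 0.21 (limma adjusted p = 0.285), but with median centring the mean was −0.45. This value rests on a probe designed on a predicted transcript, with 75% GC, the highest of the tested member probes. The probe on the curated Rpl21 transcript was not well above background in any pool. Rpl13a, which can be released from the ribosome to repress translation in interferon-treated cells, was well above background in 2 HP pools and in no control pool. It read 6.37, 6.68 and 6.43 in HP and 6.40, 6.22 and 6.36 in control, with ratios of −0.03, 0.46 and 0.08 (mean 0.17 ± 0.15, limma adjusted p = 0.534). With the scanner ratios, which have no offset, the mean of Rpl13a was 2.17, the highest of the tested members.

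The other members around the peptide tunnel exit were lower to different degrees. Rpl26, which also binds the p53 mRNA, was at −0.86 ± 0.21, Rpl23a, a docking site for the signal recognition particle, at −0.43 ± 0.12, Rpl19 at −0.46 ± 0.13 and Rpl17 at −0.49 ± 0.11. All 4 were below 0 on each array, and their HP and control pools did not overlap. Rpl39, a very short protein that lines the tunnel, stood apart from them at −0.08 ± 0.19. Its ratios were 0.30, −0.03 and −0.49, and the mean was 0.13 without replicate 3 and 0.017 with replicates 2 and 3 counted as 1. Rpl31 was not tested.

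Other members lie around the peptidyl transferase centre and the L1 stalk. Rpl10, one of the last proteins to join the subunit, was at −0.42, 0.38 and −0.58 (mean −0.20 ± 0.23). Rpl10a of the L1 stalk was at −0.32, −0.30 and −0.36 (mean −0.33 ± 0.10), close to background, with 1 HP pool and 3 control pools above it. Rpl8, which lies near the catalytic centre, was at −0.26 ± 0.12. With the scanner ratios these were −1.57 for Rpl10a and −1.27 for Rpl8. Rpl23, which contacts the assembly factor Eif6, was at −0.30 ± 0.11. Rpl15, at −0.48 ± 0.18, Rpl13, at −0.71 ± 0.17, and Rpl6, at −0.79 ± 0.14, are proteins of the subunit body, and all 3 were below 0 on each array. The HP and control pools overlapped in Rpl15 and Rpl6. The log2 signal of Rpl15 was 10.08, 9.51 and 9.38 in HP and 10.20, 9.99 and 10.22 in control. That of Rpl6 was 8.32, 9.13 and 8.95 in HP and 8.84, 10.03 and 9.90 in control.

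Among the remaining members, Rpl27 was at −0.75 ± 0.18, Rpl35a at −0.76 ± 0.13, Rpl37a at −0.59 ± 0.21, Rpl37 at −0.45 ± 0.15 and Rpl36 at −0.47 ± 0.11. Rpl41, which encodes the shortest ribosomal protein, was at −0.49 ± 0.12. Each of these 6 genes was below 0 on every array. Rpl18 was at −0.38 ± 0.13, with 1 HP pool and 3 control pools above background. Rpl27a, at −0.32 ± 0.13, was above background in the 3 control pools and in no HP pool, and it was at −2.49 with the scanner ratios. Rpl14 and Rpl29 had 1 strongly negative array each. Their ratios were 0.13, −0.90 and 0.02 for Rpl14 (mean −0.25 ± 0.25) and 0.29, −1.11 and −0.27 for Rpl29 (mean −0.36 ± 0.30), and without replicate 2 their means were 0.0760 and 0.0105.

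A member above background on 2 or more arrays in only 1 group was tested because of that group, so the filter bears on the counts above. That was so for Rpl10a, Rpl18 and Rpl27a (2 or more arrays in control only) and for Rpl13a (HP only). Of the other 39, 38 had a mean below 0. Where a probe had to be above background in both channels of all arrays, 38 members were left, with 37 below 0 and a median of −0.57. Under that filter 49.2% of all genes were below 0, with a median of 0.01. The 6 genes with no tested probe were Rpl3, Rpl3l, Rpl4, Rpl28, Rpl31 and Rplp0. The 21 untested probes, of these and of other members, had mean ratios of at most 0.245 in size after loess. The offset pulls such dim probes towards 0, and their scanner ratios ran from −1.77 (Rpl28) to 0.34 (a probe of Rpl35a). These small sizes are therefore no measure of an unchanged mRNA. Of the 78 member probes, 15 were not above background in either channel on any array. Rpl3 and Rpl4 encode proteins that a ribosome cannot lack, so a dim probe is no measure of absence.

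Several genes were read by more than 1 probe, which gives the same mRNA more than 1 measurement on the same arrays. Of 12 genes with 2 or more tested probes, none had probes of opposite sign, but the size differed. Distances between probes are those on the genome, can include introns and are not lengths of mRNA. In Rpl7, which encodes a protein of the subunit body, the probe nearest the 3′ end gave −0.97 ± 0.20. A probe 1014 genomic bases upstream gave −0.25 ± 0.11, and the third was above background in 1 pool per group and untested. They lie at chr1:16290456-16290515, chr1:16291470-16291867 and chr1:16292191-16292250 (mm7, minus strand), and are shown from the 3′-most.
Rpl7 probe 1: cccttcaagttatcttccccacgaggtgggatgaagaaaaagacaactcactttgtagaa
Rpl7 probe 2: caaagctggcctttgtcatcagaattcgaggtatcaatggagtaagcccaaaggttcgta
Rpl7 probe 3: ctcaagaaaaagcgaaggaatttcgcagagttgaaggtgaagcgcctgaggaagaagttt
Probe 1 read 8.95 in HP and 9.92 in control, probe 2 read 6.87 and 7.13, and probe 3 read 6.42 and 6.41, near background. With the scanner ratios, which have no offset, the first 2 probes gave −1.04 and −0.73.

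Rpl7a showed the same order. Its 2 probes near the 3′ end, which share 14 bases, gave −1.09 ± 0.19 and −0.98 ± 0.18. A probe 1746 genomic bases upstream of the first gave −0.09 ± 0.10 at a log2 signal of 6.40 and 6.49, with no HP pool above background. In 7 of the 11 genes whose tested probes could be placed, the probe nearest the 3′ end had the lower ratio. Rpl13 (−0.71 against −0.43), Rpl6 (−0.79 against −0.51), Rpl17 (−0.49 against −0.02) and Rpl23a (−0.43 against −0.24) were among them. In each of these the 3′ probe was also the brighter, and the offset pulls a dim probe towards 0. With the scanner ratios they gave −0.79 against −0.75, −0.84 against −0.69, −0.49 against −0.15 and −0.67 against −0.16. The count with those ratios was again 7. In Rpl24 the 3′ probe was the higher (−0.96 against −1.40), as in Rpl35a (−0.16 against −0.76). In Rpl23 the 3′ probe gave −0.27 and the other −0.30. The 3 probes of Rpl36a gave −0.55, −0.55 and −0.31, the first 2 of them sharing 40 bases. The probes of Rpl10 gave −0.20 and −0.14.

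**Figure D4:**
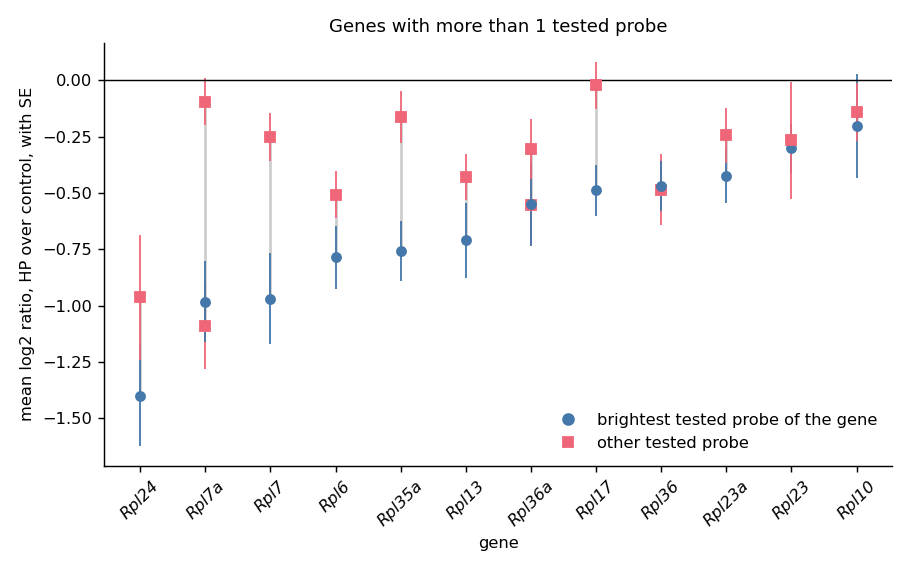
Mean log2 ratio of HP over control (y axis) with its SE over 3 arrays for each tested probe of the 12 genes with more than 1. All probes lie below 0 after loess. Gaps between probes include those of Rpl7a (−1.09 and −0.09) and Rpl7 (−0.97 and −0.25), which were smaller with the scanner ratios (−1.25 and −0.71, −1.04 and −0.73).

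Overlapping probes that differ in sequence were found for Rpl35a and Rpl36. Those of Rpl35a share 45 positions with 4 mismatches, and those of Rpl36 share 39 with 2. Mismatched bases are in capitals. Both Rpl35a probes are assigned to the same transcript, at chr16:32732018-32733213 and chr16:32732033-32733233 (mm7), and those of Rpl36 lie at chr17:54823654-54823795 and chr17:54823633-54823692.
Rpl35a probe 1: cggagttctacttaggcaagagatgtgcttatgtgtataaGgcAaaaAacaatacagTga
Rpl35a probe 2: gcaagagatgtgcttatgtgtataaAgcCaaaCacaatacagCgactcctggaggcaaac
Rpl36 probe 1: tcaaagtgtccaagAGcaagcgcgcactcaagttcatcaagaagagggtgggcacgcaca
Rpl36 probe 2: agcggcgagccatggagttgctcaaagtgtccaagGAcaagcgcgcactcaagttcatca
Counted from the 5′ end of probe 1, the substitutions from probe 1 to probe 2 are G41A, A44C, A48C and T58C in Rpl35a and A15G and G16A in Rpl36. The Rpl35a probes gave −0.76 ± 0.13 and −0.16 ± 0.11, at log2 signals of 8.69 and 6.85 in control. With the scanner ratios they gave −0.88 and −0.75. The Rpl36 probes gave −0.47 ± 0.11 and −0.49 ± 0.16. A probe named LOC436081, which is no member, shares at least 30 bases in a row with Rpl36 probe 2 and gave −0.54. Which transcripts of a gene family each probe binds was not tested, and ribosomal protein genes have many processed copies in the genome that such a probe could also read.

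Other genes of the large subunit stand under other names on the array. Rpl34, named 1100001I22Rik there, gave −0.97 ± 0.15 and −0.54 ± 0.11 with 2 probes, each below 0 on all arrays. Rpl39l, a paralog of Rpl39 known from testis and named 4930517K11Rik on the array, had probes of opposite sign. The brighter gave −0.02, 0.45 and 0.57 (mean 0.33 ± 0.16) and the dimmer −0.12, −1.26 and −0.16 (mean −0.51 ± 0.28). Rrp7a and Rsl24d1, which encode ribosome assembly factors and not proteins of the large subunit, were at 0.20 ± 0.12 and 0.13 ± 0.27.

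The start of a ribosomal protein mRNA carries the pyrimidine run through which its translation is controlled. RefSeq promoter windows (GRCm38.p6, 250 bases before to 50 after the annotated start) were found for 37 of the 49 members, in 43 entries. The windows of 4 members are shown from 30 bases before the start, with the pyrimidine run that covers the start in capitals. They lie at chr11:114668550-114668599 (plus strand), chr2:39005112-39005161 (minus), chr2:26910777-26910826 (plus) and chr7:141447621-141447670 (plus).
Rpl38: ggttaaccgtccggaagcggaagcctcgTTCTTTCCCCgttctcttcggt
Rpl35: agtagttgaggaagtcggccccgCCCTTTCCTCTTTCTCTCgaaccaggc
Rpl7a: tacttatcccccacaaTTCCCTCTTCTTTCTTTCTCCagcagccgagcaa
Rplp2: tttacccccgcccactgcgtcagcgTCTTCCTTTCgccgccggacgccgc
A run of 5 or more pyrimidines over the start was found in 11 of the 43 member entries (25.6%) and in 10.1% of all 32851 entries. Among tested members with 1 annotated start, the 8 with such a run had a median ratio of −0.57 (−1.83 to −0.08), and the 20 without had a median of −0.57 (−1.40 to 0.17), equal to 2 decimals. An annotated start a few bases from the true one would hide a run. On either strand of the window, CCGGAAG was found in 30.2% of member entries and 8.86% of all, AAGATGGC in 14.0% and 2.75%, and TATAAA in 11.6% and 13.6%. Each motif was counted on its own, and a match is a description of the letters, not of a binding site.

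Other ribosomal protein genes, and genes as bright as the members, were set beside the large subunit. Of 33 tested small subunit genes, 31 were below 0 and 23 on all arrays, with a median of −0.45. That is close to the large subunit's −0.49, and the difference was not tested. Of 31 tested proteins of the mitochondrial large subunit, 27 were below 0 and 14 on all arrays, with a median of −0.24. Of all tested genes, 51.7% were below 0 and 25% on all arrays. Among the 965 tested genes with a signal at or above the members' median, 45.3% were below 0 after loess and the median was 0.07.

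The factors that assemble and export the 60S subunit were near the level of all genes. Of 50 listed, 36 were tested. Of the 36, 23 were below 0 (63.9%, against 51.7% of all genes) and 10 on all arrays (27.8%, against 25%). At an unadjusted limma p under 0.05, 4 were lower (11.1%, against 11.3% of all genes) and 2 higher, as were 7.26% of all genes. None passed adjustment. The median of the 36 was −0.09. The lowest were Bccip, a chaperone of Rpl23, at −1.28 ± 0.29, Nop16 at −0.89 ± 0.25 (no HP pool above background) and nucleolin (Ncl), an abundant nucleolar protein, at −0.88 ± 0.16. The highest were Rrp15 at 0.47 ± 0.12, the export GTPase Ran at 0.37 ± 0.12 and Rrs1, which brings the 5S particle to the pre-ribosome, at 0.37 ± 0.18, and all 3 were below 0 with median centring (−0.57, −0.77 and −0.40). Of 15 genes that regulate mRNAs with a pyrimidine start, 13 were tested. Of these, 8 were below 0 (61.5%, against 51.7% of all genes), and the median was −0.26. Larp1, which binds the capped pyrimidine start, was lowest at −0.90 ± 0.17, followed by Tsc1, an inhibitor of the kinase mTOR, at −0.81 ± 0.21 (no HP pool above background) and the translation repressor Eif4ebp1 at −0.69 ± 0.12. The highest were Eif4ebp2 at 0.60 ± 0.18, the cap-binding protein Eif4e at 0.45 ± 0.15 and Rheb, which activates mTOR, at 0.40 ± 0.14, again below 0 with median centring (−0.45, −0.77 and −0.51). None of these genes passed adjustment (limma adjusted p from 0.174 to 0.348).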

How the data were processed

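The deposited scanner tables of 3 two-colour Agilent arrays were used. Spots were read with Agilent Feature Extraction 9.5.1.1, per the submitters' processing notes. Its mean spot and local background signals, as deposited, are intensity values before subtraction. Its log ratio, also deposited, is a log10 value of Cy5 over Cy3 after the scanner software's background subtraction and dye normalization, and the series table of the authors repeats those log10 values (largest difference 5e-10). Here the spot signals were corrected with normexp (offset 50) and then, within arrays, by loess, with control spots at weight 0, in limma 3.58.1 (R 4.3.3). Channel signals were scaled by quantiles of the mean intensity. Outlier spots were dropped, none of them of a member, and spots of a probe were averaged. A probe was tested when well above background in 1 channel on at least 2 of 3 arrays, and a gene is its brightest tested probe. An intercept was fitted to the log2 ratios by limma with empirical Bayes moderation (2.047 prior and 2 residual degrees of freedom), and p-values were adjusted (Benjamini-Hochberg) over all genes or all probes. Standard errors are moderated. The limma fit was tested on simulated log ratios with known differences, and the steps before it were not tested in this way.

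Replicate numbers pair the HP and control pool on each array, and the fit uses the ratio within an array. Gene names are those of the array, with other genes updated through RefSeq (22951 probes by accession, 6659 by symbol, 3109 by synonym, 8455 kept). Members and gene lists were chosen with earlier results of these data known. Of the 43 tested members 42 are named, and 1, as well as 1 gene of another list, is counted but not reported here by name. Values on each array are given for the 8 lowest members below 0 on all arrays, those above 0, the stalk, the 5S particle and paralogs, and of the assembly and regulator lists the 3 lowest and 3 highest are named. Of the other lists, counts and medians are given. There were 18 other settings.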

Additional observations from a re-analysis of the deposited data

How the results depend on the processing

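Of the 43 members, all kept the sign of their mean in 14 of 18 other settings (38 of 38 where both channels of all arrays had to be above background). Several of these settings could not turn a sign. The looser adjusted threshold, the other moderation, the separate channels and the kept outlier spots left the members' mean ratios as they were. The filter settings change which probes are tested, not the ratio of a probe, and the series table repeats the scanner ratios. No member or other gene passed adjustment in any of the 18 except with median centring, where 1031 genes and 31 members did, the members' median was −1.50 and that of the 60S assembly list −0.80. The members' median was −0.86 with the scanner ratios and with the series table, and −0.72 with a normexp offset of 0. The members lower at an unadjusted p under 0.05 numbered 10 with scaling between arrays, 15 with replicates 2 and 3 counted as 1, and 11 to 26 with a replicate left out. Over all genes these settings gave 604, 491 and 428 to 1016. With channels fitted separately, without the replicate block, such members numbered 27 and such genes in all 780, and no call past adjustment changed.

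Signs turned as follows, and the cause was not tested. With median centring Rpl21 was at −0.45, Arbp at −1.08, 4930517K11Rik at −0.78, Rrs1 at −0.40, Ran at −0.77, Rrp15 at −0.57, Rheb at −0.51, Eif4e at −0.77, Eif4ebp2 at −0.45 and Rsl24d1 at −0.52. Arbp was at −0.13 with the scanner ratios and the series table, and 4930517K11Rik at −0.090 as the mean over its probes. With a replicate left out, Rpl14 ran from −0.44 (without 1) to 0.0760 (without 2), Rpl29 from −0.69 (without 1) to 0.0105 (without 2), Rpl39 from −0.26 (without 1) to 0.13 (without 3), Rplp1 from −0.35 (without 1) to 0.047 (without 3) and Rsl24d1 from −0.0712 (without 2) to 0.49 (without 1). With replicates 2 and 3 as 1, Rpl39 was at 0.017 and Rsl24d1 at −0.047. Probes near background, such as those of Rpl10a, Rpl18, Rpl27a and Rpl13a, allow only coarse ratios.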
